A study of Homo sapiens with 12 samples.

Results

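H3K4me2 peaks of U-937 cells treated with Corin alone were compared with those of cells given the vehicle DMSO. Peaks of the 2 lists that overlapped by at least 1 bp were merged into 75072 regions. Of these, 19477 held a Corin peak and no DMSO peak and are called gained (25.9% of regions), 6072 held a DMSO peak and no Corin peak and are called lost (8.09%), and 49523 held peaks of both lists and are called shared (66.0%). With the lists of the remaining 2 treatments merged in as well, the series holds 84588 regions.

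U-937 is an established human line of monocytic leukaemia cells, labelled as acute myeloid leukaemia cells, and all groups are this 1 line. The DMSO group received vehicle for 24 h and the Corin group received 0.1 µM Corin for 24 h, each with 2 H3K4me2 libraries and 1 input library. The other groups received all-trans retinoic acid (ATRA) at 0.1 µM or ATRA and Corin at 0.1 µM each, with as many libraries, which makes 12 libraries in all and 6 for Corin and DMSO. Reads were paired, 75 bp long. The values are 1 pooled peak list per treatment, so no spread between replicates is known, no test over samples was possible, and every difference below describes these lists. Shares carry 95% Wilson intervals, which reflect counting error alone.

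Dimethylation of lysine 4 on histone H3 (H3K4me2) marks the flanks of active promoters and enhancers, including enhancers that are primed for later use. LSD1, encoded by KDM1A, removes methyl groups from mono- and dimethylated H3K4 and works in the CoREST complex together with the deacetylases HDAC1 and HDAC2. In myeloid cells this complex is brought to enhancers by the repressors GFI1 and GFI1B. Corin is a synthetic molecule that inhibits both LSD1 and the deacetylases of CoREST. The series title names CoREST, p300 and retinoic acid signalling as its subject.

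The sequences under some summits are given as examples of gained and lost DNA. Among the strongest regions, 3 gained and 3 lost examples are printed here from GRCh38 (hg38), plus strand, 300 bp around the summit. They were chosen after the matches were seen, for regions described later, and 1 gained and 1 lost example have no match. Capitals mark matches on either strand to 1 of 9 short motifs, and overlapping matches of different motifs were each counted. The gained window in CTCFL (chr20:57503122-57503421) holds 1 match to AAATCAC, a GFI1 motif. The gained window in PIGT (chr20:45453249-45453548) holds 2 C/EBP (TTGCNNAA), 1 AP-1 (TGANTCA) and 1 IRF (GAAANNGAA) match. The gained window in PPARD (chr6:35348310-35348609) holds none of the 9. The lost window upstream of SMAD3 (chr15:67042074-67042373) holds none of the 9. The lost window in a lncRNA near BCL2L10 (chr15:52093805-52094104) holds 2 C/EBP matches, and the lost window in GNG12 (chr1:67733734-67734033) holds 1 C/EBP match, 1 IRF match and 1 match to AGATAA, which GATA factors bind. Among the strongest regions with such a window, 4 of 8 gained and 2 of 7 lost windows hold a match. The share of all windows with any of the 9 was not counted, so these tallies show no difference between gained and lost regions.
CTCFL, gained: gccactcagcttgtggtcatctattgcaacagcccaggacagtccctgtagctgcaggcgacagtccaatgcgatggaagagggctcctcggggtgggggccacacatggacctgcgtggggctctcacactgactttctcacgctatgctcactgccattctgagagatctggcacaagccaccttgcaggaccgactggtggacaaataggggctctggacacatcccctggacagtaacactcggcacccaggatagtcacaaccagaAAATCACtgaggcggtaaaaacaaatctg
PIGT, gained: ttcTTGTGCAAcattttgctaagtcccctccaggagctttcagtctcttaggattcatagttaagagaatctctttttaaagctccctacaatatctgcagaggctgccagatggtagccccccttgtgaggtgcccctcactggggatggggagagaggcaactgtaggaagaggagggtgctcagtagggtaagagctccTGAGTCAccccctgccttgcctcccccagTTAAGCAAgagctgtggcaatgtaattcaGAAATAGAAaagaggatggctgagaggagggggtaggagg
PPARD, gained: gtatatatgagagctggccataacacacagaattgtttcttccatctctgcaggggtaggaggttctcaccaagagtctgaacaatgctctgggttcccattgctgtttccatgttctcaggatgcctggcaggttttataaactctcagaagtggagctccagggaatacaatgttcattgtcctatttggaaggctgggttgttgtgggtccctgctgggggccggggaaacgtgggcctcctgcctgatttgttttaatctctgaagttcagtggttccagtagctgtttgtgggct
SMAD3 upstream, lost: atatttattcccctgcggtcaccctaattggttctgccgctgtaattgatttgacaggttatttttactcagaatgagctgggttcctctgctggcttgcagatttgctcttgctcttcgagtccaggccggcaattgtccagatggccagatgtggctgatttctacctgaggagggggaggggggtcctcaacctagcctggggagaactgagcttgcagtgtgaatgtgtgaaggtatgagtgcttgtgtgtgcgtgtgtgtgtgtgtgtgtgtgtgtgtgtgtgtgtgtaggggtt
BCL2L10 lncRNA, lost: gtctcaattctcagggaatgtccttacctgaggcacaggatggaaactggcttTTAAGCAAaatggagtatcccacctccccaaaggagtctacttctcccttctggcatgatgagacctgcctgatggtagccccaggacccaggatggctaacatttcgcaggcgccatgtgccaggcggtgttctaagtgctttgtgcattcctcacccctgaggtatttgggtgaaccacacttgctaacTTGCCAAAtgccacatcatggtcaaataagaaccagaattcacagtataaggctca
GNG12, lost: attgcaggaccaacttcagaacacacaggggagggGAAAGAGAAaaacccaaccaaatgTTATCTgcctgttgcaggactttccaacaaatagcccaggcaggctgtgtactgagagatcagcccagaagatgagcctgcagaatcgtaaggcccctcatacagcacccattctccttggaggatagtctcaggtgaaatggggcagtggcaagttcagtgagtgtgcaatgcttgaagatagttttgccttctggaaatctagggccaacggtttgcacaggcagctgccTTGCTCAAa

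Over all regions the gained windows were richer in A and T than the rest. Median GC content of the 300 bp summit window was 45.7% in gained, 51.3% in lost and 51.3% in shared regions. The GFI1 motif stood in 5.53% of gained windows (interval 5.22 to 5.86%), 3.11% of lost windows (2.70 to 3.58%) and 3.67% of shared windows, against 4.14% of all Corin peaks and 3.45% of all DMSO peaks. The AP-1 motif, bound by JUN and FOS factors, stood in 11.7% of gained, 8.79% of lost and 8.52% of shared windows, against 9.31% of all Corin and 8.86% of all DMSO peaks. The C/EBP motif stood in 17.4%, 13.8% and 13.4% of them in the same order (14.4% of Corin and 13.1% of DMSO peaks), and the GATA motif in 15.8%, 10.8% and 11.1% (12.4% and 10.5%). The motif of PU.1, GAGGAAGT, the lineage factor of monocytes encoded by SPI1, had another order: 3.23% of gained, 4.13% of lost and 2.88% of shared windows (2.91% of Corin and 2.95% of DMSO peaks).

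The shares also differed with place and strength. Among regions over 1 kb from a start site whose strongest peak had a deposited −log10 q of 2 to 10, AP-1 stood in 1687 of 14059 gained, 360 of 4133 lost (8.71%) and 1141 of 9946 shared windows (11.5%). C/EBP stood in 17.6%, 14.0% and 16.9% of the same windows. There the gained regions were close to shared ones of like strength in the Corin list, and the lost regions lay lower. The −log10 q and summit came from the DMSO list for lost regions and from the Corin list for the others. Lost regions were thus not matched in strength to shared ones. GFI1 stood in 5.43% (5.06 to 5.81%) of gained, 3.24% (2.74 to 3.82%) of lost and 4.04% (3.67 to 4.45%) of shared windows, and PU.1 in 3.19%, 4.65% and 4.18%. Median GC content still differed, at 45.7% in gained, 51.0% in lost and 48.0% in shared windows, and its part in the A/T-rich motifs was not tested. For IRF and RUNX (TGTGGTTT) the order of gained and shared windows turned. In all windows IRF stood in 10.7% of gained, 8.68% of lost and 8.80% of shared, and RUNX in 3.10%, 2.67% and 2.53%. In the distal windows with a −log10 q of 2 to 10 IRF stood in 10.7%, 8.73% and 11.1%, and RUNX in 2.94%, 2.71% and 3.44%. NF-Y (CCAATCA) stood in 2.92%, 2.34% and 2.12% of all windows and in 2.89%, 2.32% and 2.65% of the distal ones, and NRF1 (GCGCATGCG) in under 0.1% of each class. A match is a string of letters and shows no binding.

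Gained regions were short and weak beside shared ones, and so were lost regions. The median width was 357 bp for gained (quartiles 250 and 553), 280 bp for lost (210 and 400) and 1394 bp for shared regions (814 and 2356). Together the gained regions spanned 8.74 Mb and the lost regions 2.03 Mb. The strength of a peak is given by the authors' −log10 q, the caller's adjusted p against input, and here it ranks peaks within 1 list. Its median was 3.92 in gained regions against 24.9 for the Corin peaks of shared regions, and 3.27 in lost regions against 20.9 for the DMSO peaks of shared regions. The value was 5 or higher in 7517 gained (38.6%) and 1574 lost regions (25.9%), and in 90.7% of shared regions in the Corin list. Recovered from the deposited fold and p, the H3K4me2 fragments at the summit had a median of 21 in gained regions (quartiles 17 and 26) and 57 in shared regions of the Corin list. In lost regions the median was 19 (16 and 23), against 52 in shared regions of the DMSO list.

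The lists differ in length and a little in depth. The DMSO list holds 65172 peaks over 73.4 Mb and the Corin list 73997 peaks over 95.02 Mb, both on 23 chromosomes. From the same recovery, the lowest background at any summit was taken as a measure of depth. In the Corin list it was 1.10 times that of DMSO in the H3K4me2 libraries and 1.19 times in the input. The median summit held 40 fragments in the Corin list and 39 in the DMSO list. Gained outnumbered lost regions 3.21 to 1 as deposited, 2.38 to 1 after thinning to equal depth, where peaks also had to reach a new −log10 p of 5, and 1.62 to 1 with the longer list cut to equal length. In lists of equal length, gained minus lost regions equals the DMSO minus Corin peaks inside shared regions. The last ratio thus depends on how peaks split or fuse there. On each of the 23 chromosomes more regions were gained than lost. Just outside the overlap rule, 510 gained regions lay within 100 bp of a DMSO peak and 347 lost regions within 100 bp of a Corin peak. Just inside it, 207 of 38084 shared regions made of 1 peak from each list overlapped by 100 bp or less.

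Start sites of monocyte markers were mostly under peaks in these cells, and those of erythroid and liver markers were mostly not; over all protein-coding genes 35.7% were under peaks of both lists and 50.4% under neither. Of 20 monocyte and macrophage markers, 15 had their canonical start site under a peak in both lists, and 8 of 10 granule and progenitor-stage myeloid genes did. Of 11 erythroid and megakaryocyte markers 0 were under both and 1 was under a DMSO peak. Of 7 liver markers 0 were under a peak of either list, and of 11 lymphoid markers 3 were under both. An uncovered start site alone does not mark a gene of another cell type, since 13 of 20 ribosomal protein genes were under neither and 2 under both.

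Gained regions lay away from start sites, often a few kb from them. Distance was measured to the nearest start site of a protein-coding or lncRNA gene in GENCODE release 44. The median was 12215 bp for gained, 15255 bp for lost and 6057 bp for shared regions. Within 1 kb lay 5.66% of gained regions (5.34 to 5.99%), 8.75% of lost (8.06 to 9.48%) and 35.6% of shared regions. Directly over a start site were 241 gained (1.24%), 136 lost (2.24%) and 12787 shared regions (25.8%). In the band from 1 to 5 kb the order was the reverse, with 23.8% of gained (23.2 to 24.4%), 16.8% of lost (15.9 to 17.8%) and 11.8% of shared regions.

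**Figure D1:**
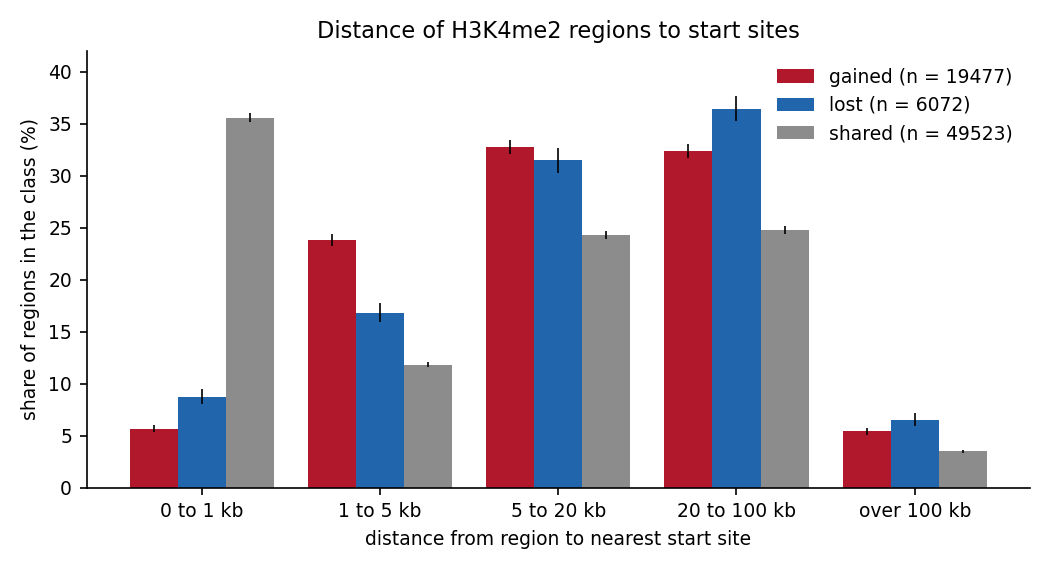
Share of gained, lost and shared H3K4me2 regions (y axis, percent of the class) by distance to the nearest start site (x axis), with 95% Wilson intervals as error bars. Shared regions lead in the first bin at 35.6%, and gained regions lead in the bin from 1 to 5 kb at 23.8%.

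Introns held most of the gained regions. A region was placed in a gene body when it was beyond 1 kb of a start site and outside exons, and 59.4% of gained, 53.6% of lost and 33.5% of shared regions were. Outside genes lay 28.5%, 28.7% and 22.6%, and over exons 6.49%, 8.94% and 8.26%. Weak regions of each class were mostly distal: with a −log10 q of 2 to 5, 5.37% of gained, 7.58% of lost and 8.09% of shared regions lay within 1 kb of a start site. With a −log10 q of at least 20 the shares were 11.2% of 268 gained, 27.6% of 29 lost and 53.1% of 28196 shared regions. The interval of the lost share was 14.7 to 45.7%. The −log10 q was that of the DMSO list for lost regions and of the Corin list for the others.

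Gained regions often neighboured H3K4me2 present in both lists. The nearest shared region was a median of 2534 bp from a gained region and 4268 bp from a lost one. Within 1 kb of a shared region lay 38.2% of gained (37.5 to 38.9%) and 31.2% of lost regions (30.0 to 32.4%). Within 20 kb these shares were 81.6% and 76.9%.

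The strongest gained region lay over the start of PI16, a secreted peptidase inhibitor, at chr6:36953472-36956601. Its −log10 q with Corin was 100.4, with a fold over input of 21.0 and 153 fragments at the summit. The DMSO and ATRA lists held no peak there, and the ATRA+Corin list held one with a −log10 q of 185. The next was over an exon of CTCFL, the germline relative of the insulator protein CTCF, at chr20:57502566-57503814, with a −log10 q of 96.8, again with no peak in the ATRA list and one of 85.6 in the combination list. In SKI, a corepressor of TGF-β signalling, an intronic region at chr1:2253924-2255878 reached 66.9 with Corin, 4.17 with ATRA and 111 with both drugs.

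PPARD, a lipid-sensing nuclear receptor, gained an intronic region at chr6:35347674-35349360, 5116 bp downstream of its canonical start. Its summit held 175 fragments, the most of the 10 strongest gained regions, but its fold of 6.13 was the lowest of them. It had a −log10 q of 50.0, no ATRA peak and a combination peak of 92.7. Fragments ran high across this locus. The 3 gained regions nearest to PPARD held 48 to 175 at their summits and the 3 lost ones 46 to 55. The medians over all gained and lost regions were 21 and 19. A region over an exon of CRTC3, a coactivator of CREB, at chr15:90638363-90639093 reached 50.8, also with no ATRA peak and a combination peak of 92.6. In PIGT, a subunit of the enzyme that attaches GPI anchors, the intronic region at chr20:45452634-45453819 had 46.7, no ATRA peak and 65.4 with both drugs. BCORL1, a transcriptional corepressor, had a region 273 bp upstream of its canonical start at chrX:129981278-129982362 with 79.8. That region was also in the ATRA list with 137 and in the combination list with 96.9, so DMSO was the only list of the 4 with no peak there. Of the 10 strongest gained regions, 10 had a peak in the ATRA+Corin list, 4 had one in the ATRA list and 2 lay within 1 kb of a start site.

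The strongest lost region lay over the start of SLC18B1, a vesicular polyamine transporter, at chr6:132798171-132799241. Its −log10 q was 126 with DMSO, with 197 fragments at the summit, and 273 with ATRA, and neither the Corin nor the ATRA+Corin list held a peak there. The next lay in a lncRNA 21946 bp upstream of SMAD3, a carrier of TGF-β signals, at chr15:67041334-67043656, with 112 in DMSO, 144 in ATRA and 163 in the combination list. The lncRNA region near BCL2L10, a BCL2 relative, at chr15:52092778-52095981 had 47.3, 104 and 48.7 in the same 3 lists. These last 2 were thus called in every list but that of Corin alone. Peaks carry numbers in each list. Among the lowest 30000 numbers, 22 were missing from the Corin list and 18 from the DMSO list, and 0 among the lowest 1000. Whether missing peaks made some gained or lost calls was not tested. The intronic region in GNG12, a G-protein subunit, at chr1:67733633-67734789 had 35.0 in DMSO, 9.05 in ATRA and 10.1 in the combination list. In BAHCC1, a chromatin protein with a BAH domain, the intronic region at chr17:81435979-81436927 had 27.1 in DMSO, 9.16 in ATRA and none with both drugs.

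The other 5 strongest lost regions were near start sites, and 4 of them are uncertain. POM121, NOTCH2NLA, HERC2 and the lncRNA nearest GOLGA6L7 belong to duplicated families or segments whose near-identical copies can share reads. Their regions were 218 to 350 bp wide. The fifth, 993 bp upstream of the canonical start of the matrix gene ECM2 at chr9:92536983-92537710, had a −log10 q of 25.3 in DMSO, 79.8 in ATRA and 26.9 in the combination list. Of the 10 strongest lost regions, 10 had a peak in the ATRA list and 7 in the ATRA+Corin list.

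Most gained regions were called again when Corin was given with ATRA. A peak of the ATRA+Corin list lay in 77.1% of gained regions (76.5 to 77.6%) and a peak of the ATRA list in 33.0% (32.4 to 33.7%). With a −log10 q of at least 20, 265 of 268 gained regions were in the ATRA+Corin list (98.9%) and 139 in the ATRA list (51.9%). Lost regions looked otherwise. Peaks of the ATRA list lay in 55.2% of them and peaks of the ATRA+Corin list in 52.8%, so about as many were present with both drugs as with ATRA. At a −log10 q of 10 to 20, 87.0% of 284 lost regions were in the ATRA list (82.6 to 90.4%) and 70.4% in the ATRA+Corin list (64.9 to 75.4%). Of shared regions 95.2% and 98.1% were in these lists. All treatments are set against the same DMSO list, and list lengths differ, so these shares describe where Corin's regions recur and test no effect of ATRA.

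**Figure D2:**
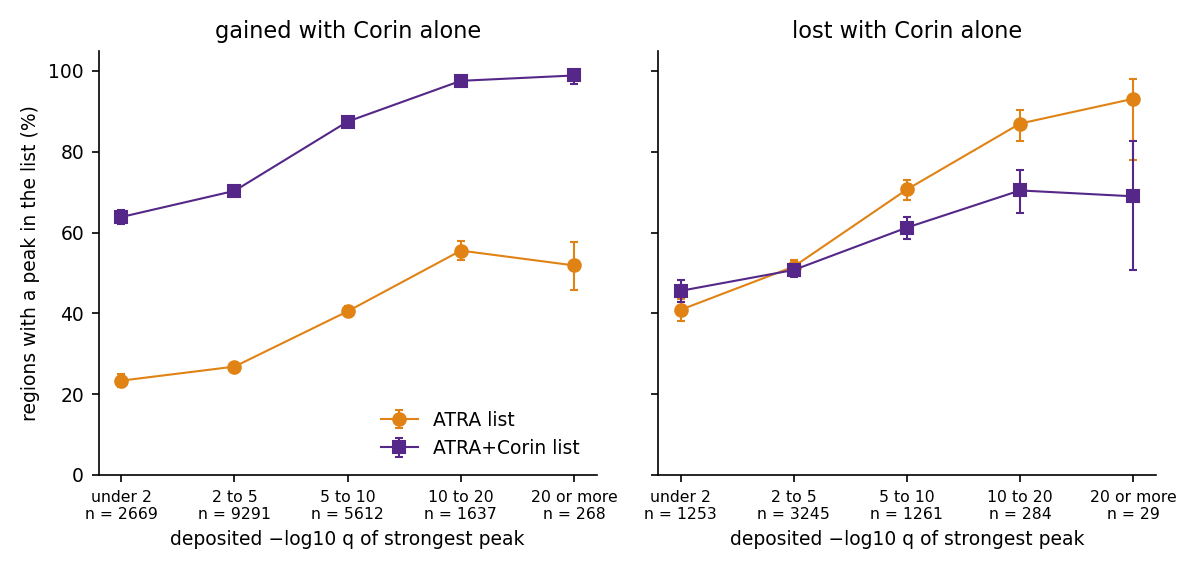
Share of regions gained (left) or lost (right) with Corin alone that hold a peak of the ATRA list (circles) or the ATRA+Corin list (squares), by the deposited −log10 q of the region's strongest peak (x axis). Bars are 95% Wilson intervals. The gained regions of at least 20 were in the ATRA+Corin list in 98.9% of cases.

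Shared regions were mostly longer with Corin. The bases under peaks in a shared region had a median of 1058 bp with DMSO and 1320 bp with Corin, the median ratio was 1.17 (quartiles 1.01 and 1.47), and 77.0% of the regions were longer with Corin. In all they covered 71.4 Mb and 86.3 Mb. The Corin bases were at least 1.5 times the DMSO bases in 11643 regions (23.5%), and the reverse held in 1795 (3.62%). So the bases added within shared regions, from 71.4 to 86.3 Mb, exceeded the 8.74 Mb of gained regions.

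Widening was greater in proportion away from start sites. Of regions over 20 kb from a start site 30.2% were at least 1.5 times longer with Corin (29.5 to 31.0%) and 5.07% shorter by as much, and from 1 to 20 kb the shares were 30.0% and 4.69%. Of regions over a start site 10.1% (9.62 to 10.7%) were wider and 0.892% narrower. In bases the order was the opposite: regions over a start site went from a median of 2314 to 2700 bp, with a median difference of 310 bp, and those over 20 kb away from 735 to 981 bp, with 175 bp. The share differed with size as well. When regions were split by their mean width in the 2 lists, 28.6% of those up to 400 bp were wider and 10.03% narrower. Wider were 35.8% of those above 400 and up to 1000 bp, 20.8% of those above 1000 and up to 2000 bp and 9.62% of those over 2000 bp.

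**Figure D3:**
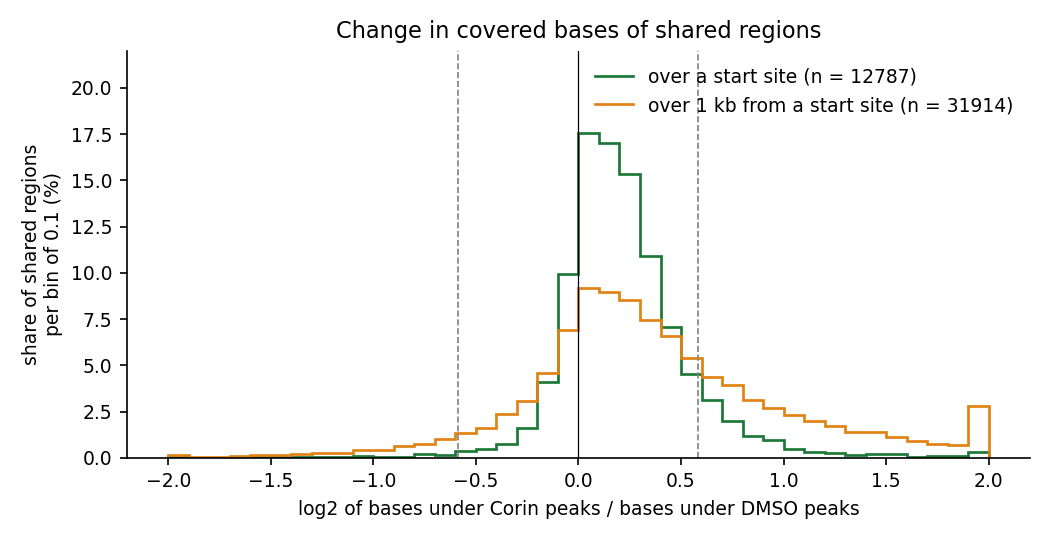
Distribution over shared regions of the log2 ratio of bases under Corin peaks to bases under DMSO peaks (x axis), as percent of regions per bin (y axis), for regions over a start site and over 1 kb from one; the outermost bins also hold values beyond them. Dashed lines mark a ratio of 1.5 in each direction, and both curves peak just above 0, with the longer right tail in the distal regions.

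Peaks also fused. In 6989 shared regions (14.1%) fewer Corin than DMSO peaks covered the region, with a median ratio of 1.27 and 92.5% of them longer. In 3607 (7.28%) there were more Corin than DMSO peaks, with a median ratio of 1.06. In LYST, a regulator of lysosome traffic in granule-forming cells, 7 DMSO peaks that covered 8377 bp stood against 1 Corin peak of 16940 bp at chr1:235848761-235865870, the largest difference of any shared region. PPP3R1, the regulatory subunit of calcineurin, had 6 DMSO peaks of 1742 bp in all against 1 Corin peak of 9594 bp at chr2:68224002-68233595, and beside it 876 bp against 8119 bp. FUT4, which makes the CD15 sugar of myeloid cells, had 9572 bp against 16677 bp around its start. GLO1, a glyoxalase, had 893 bp against 7676 bp in its body.

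Narrowing was smaller in extent. The largest differences in that direction were in CYB5D2 at chr17:4161155-4163035, with 1881 bp under DMSO and 274 bp under Corin, and 14369 bp upstream of UBAC1, with 3504 and 1947 bp. At the start of KLRF2, a lectin-like receptor of lymphocytes, a DMSO peak of 3089 bp stood against 2 Corin peaks of 1582 bp. In ELFN2 2190 bp stood against 684 bp.

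At protein-coding start sites themselves the Corin list had a hole more often. Of 19951 canonical start sites, 7127 (35.7%) were under peaks of both lists, 2306 under a DMSO peak only (11.6%) and 462 under a Corin peak only (2.32%). Of the 2306, 2211 (95.9%) had Corin peaks within 1 kb on both sides, with a median gap of 200 bp between them, and 27 had none. Most of these sites thus lay in a short gap between Corin peaks. The listed genes under a DMSO peak only were 4 of 13 leukaemia stem and progenitor genes, 5 of 15 genes of the CoREST list, 3 of 10 H3K4 enzymes and 5 of 20 ribosomal protein genes, while 6, 7, 5 and 2 of these lists were under both. In the other lists they were 2 of 12 retinoid, 2 of 15 interferon, 1 of 10 inhibitor, 1 of 11 erythroid and 1 of 11 lymphoid genes, and 0 of the monocyte, granule, myeloid factor, neuronal and liver genes. Of the genes described below by the rule for names, 9 were under a DMSO peak only: JARID2, FNDC3B, NR2F2, MEIS1, the CoREST subunit RCOR1, CRABP2, CDKN2D, RPL19 and RPS2. Of the 462 under a Corin peak only, 336 (72.7%) were flanked by DMSO peaks on both sides and 55 (11.9%) had none within 1 kb.

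The coverage profile around start sites moved outward, more so downstream. At the start site itself Corin minus DMSO coverage was −9.24 percentage points. At 600 bp downstream the lists were level, at 56.0% with DMSO and 56.3% with Corin. At 1800 bp downstream DMSO covered 28.5% and Corin 41.04%, and at 1800 bp upstream 15.4% and 21.9%. Where peaks of both lists lay over the start site, the downstream edge of the Corin peak lay a median of 242 bp farther out (quartiles 25 and 615) and the upstream edge 45 bp farther out (−37 and 230). The downstream edge was extended at 79.2% of these sites and the upstream edge at 62.9%. The summit lay a median of 411 bp from the start with DMSO and 576 bp with Corin, and within 500 bp of it at 60.3% and 43.8% of sites.

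**Figure D4:**
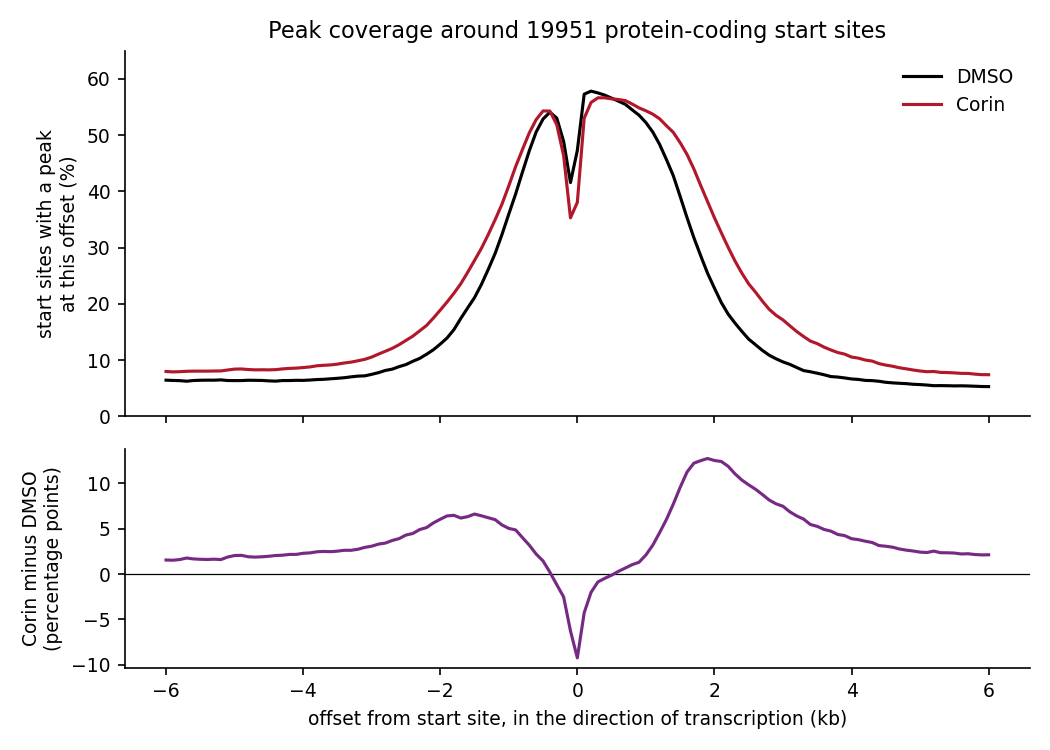
Upper panel: percent of 19951 protein-coding start sites that have a DMSO or a Corin peak at each offset (x axis, kb in the direction of transcription). Lower panel: the Corin value minus the DMSO value in percentage points, which is −9.24 at the start site and positive on both flanks, with the higher flank downstream.

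Peaks near start sites remained the strongest of each list. Within the DMSO list the authors' fold over input had a median of 16.4 for peaks within 1 kb of a start site and 5.33 beyond, and within the Corin list 13.9 and 5.23. Of the 1000 strongest, 86.6% with DMSO and 84.8% with Corin were that close to one.

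Some genes had many gained regions nearest to them. Each region was assigned to the nearest canonical protein-coding start site: 8369 genes had a gained region, 901 had 5 or more and 136 had 10 or more, which held 9.19% of all gained regions. Lost regions had 4016 nearest genes, and 78 of them had 5 or more. JARID2, an accessory factor of the Polycomb complex PRC2, had the most, with 48 gained, 8 lost and 48 shared regions. The gained ones lay 6.20 to 534 kb from its start with −log10 q from 0.994 to 8.06, and 39 of them were in the ATRA+Corin list against 10 in the ATRA list. FNDC3B had 38 gained, 2 lost and 20 shared regions. MBNL1, a splicing regulator, had 30 gained, 2 lost and 11 shared regions, and within 50 kb of its start the bases under peaks were 16717 with DMSO and 39128 with Corin.

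The other genes with the most gained regions were of several kinds. ELF1, an ETS factor, had 18 gained and 1 lost, and its strongest gained region, 7.98 kb downstream of the start in the gene body, had a −log10 q of 21.4. ZEB2, a zinc finger repressor of myeloid and neural cells, had 21 gained and 7 lost. TNFAIP8, a regulator of apoptosis, had 21 gained and 0 lost, and the bases within 50 kb were 8131 with DMSO and 19680 with Corin. LRMDA had 26 gained, 4 lost and 36 shared, ATP8B4 21, 3 and 7, and SARAF 18, 2 and 16. BCOR, the corepressor of BCL6, had 19, 11 and 44. Shared regions numbered 11 at ELF1, 19 at ZEB2 and 12 at TNFAIP8. Over all regions 25.9% were gained, and the gained part at BCOR was close to that. Genes with the most lost regions were TNS1, a focal adhesion protein, with 7 gained and 11 lost, BCOR, the hedgehog factor GLI2 with 4 and 10, TOMM20, an import receptor of mitochondria, with 10 and 9, and the nuclear receptor NR2F2 with 1 and 9. Several loci with many gained or lost regions also held many shared ones, such as 48 at JARID2, 44 at BCOR and 26 at NR2F2.

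For gene groups, regions were counted within 50 kb of the canonical start site. Over all 19951 protein-coding genes 48.3% had more gained than lost regions, 10.2% had more lost than gained, the median difference was 0, and the median ratio of bases under Corin to bases under DMSO peaks was 1.22. The share with more gained regions was 11.4% for genes with 0 shared regions in the window, 42.1% with 1 to 3, 59.0% with 4 to 6, 66.8% with 7 to 9 and 71.3% with 10 or more, so a group must be read beside its density. Neighbouring genes share regions.

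Monocyte and macrophage markers stood on the gained side. Of 20, 15 had more gained than lost regions and 0 had more lost, and the median difference was 3. The group had a median of 6 shared regions in the window. Over all genes with 4 to 6 shared regions, the share with more gained was 59.0%. Bases under peaks were more with Corin in 19 of 20. The same held for 15684 of all 19951 protein-coding genes, of which 17442 had any region, so that count is common to most genes. The median ratio was 1.63 against 1.22 for all genes. By nearest gene, 53 gained and 3 lost regions fell to this list, beside 19477 and 6072 for all genes. Of the 53, 11 were nearest to VCAN, picked out after its values were seen. They lay 60.9 to 164 kb from its start, and VCAN had 0 gained regions within 50 kb. LYZ, the lysozyme gene, had 10 gained and 0 lost regions, and 12420 bp under DMSO against 22642 bp under Corin peaks. CD14, the coreceptor for lipopolysaccharide, had 7 and 0, with 14221 and 24592 bp. CD86, a costimulatory ligand, had 3 and 0, with 6740 and 12740 bp. ITGAM, the integrin chain CD11b, had 0 and 0, yet 4538 bp stood against 9076 bp, all of it within shared regions.

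The neighbouring calprotectin genes shared their regions. S100A8 had 7 gained and 0 lost regions, with 7680 and 13918 bp. The strongest of its gained regions lay over the start site of the neighbour S100A12, at chr1:153374822-153375637, with a −log10 q of 36.3, a fold of 12.03 and 70 fragments at the summit, and both other drug lists held a peak there. The scavenger receptor CD163, picked out after its values were seen, had no DMSO peak within 50 kb and 4 gained regions of 1842 bp under Corin peaks, with its start site under one of them. The 5 gained regions nearest to CD163 had −log10 q of 1.45 to 5.52, and 5 were in the ATRA+Corin list and 0 in the ATRA list. ITGAX, the integrin chain CD11c, picked out in the same way, had 6 gained and 0 lost regions, with 7495 and 18554 bp. Some members, picked out in the same way, had closer values: FCN1 had 6536 and 6962 bp, CD68 25022 and 27600 bp, and MRC1 had no region.

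Granule and progenitor-stage genes were mixed. Of 10, 5 had more gained and 2 more lost regions, the median difference was 0.5 and the median ratio of bases 1.11. CTSG, cathepsin G, had 0 gained and 2 lost regions, CD33 had 3 and 1, and MPO, myeloperoxidase, 1 and 0. Among 16 myeloid transcription factors 9 had more gained and 4 more lost regions, with a median ratio of 1.29. GFI1, the repressor that brings LSD1 to DNA, had 9 gained and 1 lost regions, with 18124 bp under DMSO and 27903 bp under Corin peaks. SPI1 had 6 and 0 with 22730 and 28780 bp, RUNX1 5 and 0 with 11292 and 15607 bp, and GFI1B 3 and 0 with 5290 and 7786 bp. IRF8, a factor of the monocyte lineage picked out after its values were seen, had 4 gained and 6 lost regions, while its bases were 19461 and 22920.

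**Figure D5:**
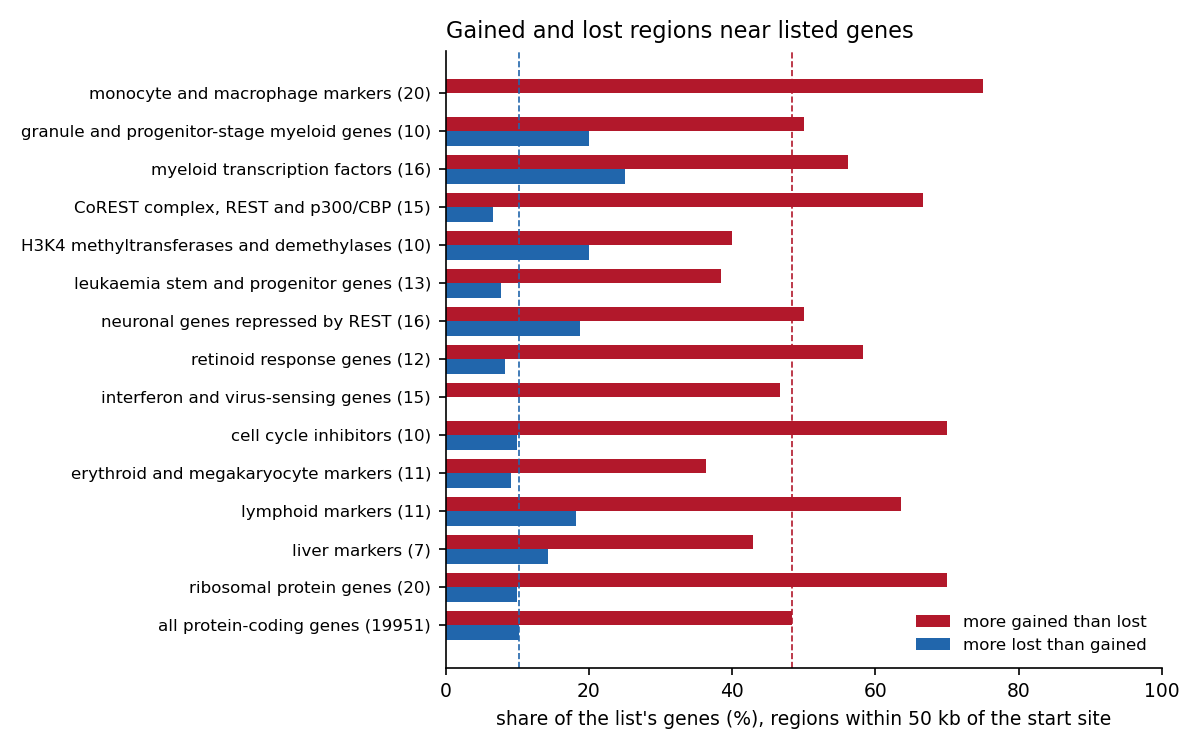
Share of genes in each list (x axis, percent; number of genes in brackets) with more gained than lost or more lost than gained regions within 50 kb of the start site. Dashed lines give the values over all protein-coding genes, 48.3% and 10.2%; monocyte and macrophage markers had 75.0% and 0.

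Genes of leukaemia stem and progenitor cells were divided. Of 13, 5 had more gained and 1 more lost regions within 50 kb, the median ratio of bases was 1.11, and by nearest gene 36 gained and 31 lost regions fell to this list, beside 19477 and 6072 for all genes. MYB, a progenitor factor, had 6 gained and 1 lost with 18669 and 26952 bp, MEIS1, the HOX cofactor, 5 and 1 with 18503 and 25478 bp, and the survival gene BCL2 2 and 0 with 8969 and 15188 bp. By nearest gene, lost regions outnumbered gained ones at other members, which were picked out after their values were seen. KIT was nearest to 0 gained and 8 lost regions, 66.6 to 144 kb away with −log10 q of 2.70 to 6.50 in the DMSO list. CD34, the stem cell surface marker, was nearest to 4 gained and 8 lost regions, the lost ones 2.31 to 138 kb away. Within 50 kb it had 2 gained and 3 lost regions. SOX4 was nearest to 1 and 6, the lost ones 72.5 to 399 kb away. The HOXA7, HOXA9 and HOXA10 cluster, named after its values were seen, shares its regions and had 57491 bp under DMSO and 55765 bp under Corin peaks.

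Genes of the CoREST complex, REST and p300/CBP are given beside genes of like density. Of 15, 10 had more gained and 1 more lost (66.7% and 6.67%), with a median of 4 shared regions and a median ratio of 1.28, and genes with 4 to 6 shared regions had more gained in 59.0%. With lists cut to equal length, and also within 10 kb, 6 of the 15 had more gained. KDM1A, which encodes LSD1, had 4 gained and 0 lost regions with 4291 and 6828 bp, REST, the neuronal repressor, 3 and 0 with 4915 and 7086 bp, and RCOR1 3 and 1 with 8643 and 11399 bp. Among 10 H3K4 methyltransferases and demethylases 4 had more gained and 2 more lost, with a median ratio of 1.07. KDM1B, the second H3K4me2 demethylase of this family, had 3 and 0 with 3373 and 5960 bp, while KMT2D and SETD1A, which add the methyl groups, had 2 and 0 each. Among 16 neuronal genes that REST represses, 8 had more gained and 3 more lost with a ratio of 1.08. VGF had 4 gained and 0 lost regions, GRIN1 3 and 1, and SYP 2 and 1.

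Retinoid, interferon and cell cycle inhibitor genes had shares with more gained regions of 58.3%, 46.7% and 70.0%. The inhibitors had a median of 7.5 shared regions, and genes with 7 to 9 stood at 66.8%. Of 12 retinoid response genes 7 had more gained and 1 more lost, with a ratio of 1.31, but within 10 kb of the start 0 had more gained. CRABP2, a carrier of retinoic acid, had 7 gained and 1 lost, and DHRS3, which reduces retinaldehyde, and the transglutaminase TGM2 had 3 and 0 each. Of 15 interferon and virus-sensing genes 7 had more gained and 0 more lost, with a ratio of 1.34. IFIT2 had 4 gained regions with 5589 and 13297 bp, and its neighbour IFIT3 shared the strongest of them, 5.43 kb downstream of the IFIT3 start at chr10:89332538-89334319, with a −log10 q of 39.9, a fold of 14.5 and 67 fragments. OAS1, which senses double-stranded RNA, had 3 and 0 with 6352 and 12114 bp. Of 10 cell cycle inhibitors 7 had more gained and 1 more lost, with a ratio of 1.28, and within 10 kb 2 had more gained; among them were CDKN2B with 7 and 0 and 10259 and 16680 bp, BTG2 with 5 and 0, and CDKN2D with 4 and 0.

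Lists of other kinds give the scale of these counts. Of 20 ribosomal protein genes, which are active in all cells and lie in dense regions with a median of 9.5 shared regions, 14 had more gained and 2 more lost, with a ratio of 1.20. RPL19 had 6 gained and 1 lost, RPL3 4 and 0, and RPS2 0 and 4. Of 11 lymphoid markers 7 had more gained and 2 more lost, with a ratio of 1.20, and BLNK, a B-cell adaptor, had 0 and 4 with 8036 and 6721 bp, while CD79A had 4 and 1. Of 11 erythroid and megakaryocyte markers 4 had more gained and 1 more lost, with a ratio of 1.18, including GP1BA with 3 and 0, EPOR with 2 and 0 and GATA1 with 1 and 0. Of 7 liver markers 3 had more gained and 1 more lost, with a ratio of 1.20, including CYP3A4 with 3 and 0, SERPINA1 with 2 and 0 and APOB with 0 and 1. A share of genes near 48.3% with more gained regions is that of all genes, and the ribosomal share of 70.0% lies close to the monocyte share of 75.0%. The ratio of bases differs between these 2 lists, at 1.20 and 1.63.

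Counts for the small lists moved with the settings, as did the share over all genes, which was 23.4% within 10 kb and 35.0% with lists cut to equal length. Within 10 kb the genes with more gained regions numbered 10 of the 20 monocyte markers, 9 of the ribosomal, 7 of the myeloid factor, 6 of the CoREST, 4 of the stem cell, 3 each of the granule, interferon and lymphoid, 2 each of the H3K4 enzyme, neuronal, inhibitor and erythroid, 1 of the liver and 0 of the retinoid genes. With lists cut to equal length they numbered 12 of the monocyte, 11 of the ribosomal, 7 of the inhibitor, 6 each of the CoREST, myeloid factor and interferon, 5 each of the neuronal and retinoid, 4 each of the lymphoid and erythroid, 3 each of the granule and stem cell, 2 of the liver and 1 of the H3K4 enzyme genes.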

How the data were processed

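H3K4me2 chromatin immunoprecipitation was sequenced in U-937 cells, and 1 pooled peak list per treatment was deposited. Per the submitters' processing notes, Trimmomatic, Bowtie2, Picard and MACS2 were used with hg38; versions are not given in the sources used here. The deposited list names describe an optimal set of peaks reproducible by overlap.

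The deposited score is 10 times the −log10 p, capped at 1000. The fold over input, a ratio, and the −log10 p and −log10 q at each summit are the authors' values and were used within a list. No depth per library is given. Fragments at each summit were recovered from the deposited fold (pseudocount 1) and −log10 p within 0.001 for 99.8% of DMSO and 100.0% of Corin peaks. In each list 0 peaks passed a chromosome end of GRCh38, and 47.3% of start sites lay under a DMSO peak against 4.60% after a shift of 1 Mb.

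Peaks overlapping by 1 bp were merged with Python 3.11.15, pandas 2.3.3 and numpy 2.4.6, figures drawn with matplotlib 3.10.9, and genes taken from GENCODE release 44. Merging, overlap with start sites, the call of wider regions and the recovery of fragments were tested on simulated data. Every simulated start site lay inside a region. Narrower regions and regions with several peaks of a list were not simulated. Named regions are the 10 gained and 10 lost with the highest −log10 q and the 5 shared with the largest rise and fall in covered bases. Named genes are the 10 with most gained and 5 with most lost nearest regions, up to 3 per list with the largest difference within 50 kb, and CD86, ITGAM, SPI1, GFI1, GFI1B and KDM1A. Genes outside this rule are marked where they are named. Members and lists were chosen with earlier results of these data known. Sequences came from GRCh38. Alternatives are given in the closing section.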

Additional observations from a re-analysis of the deposited data

How the results depend on the processing

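No paired analysis was possible because each treatment has 1 pooled peak list that carries no replicate numbers, and for the same reason no replicate could be left out. More regions were gained than lost under every alternative that counted merged regions. With only peaks whose −log10 q was 5 or more there were 12609 gained and 3635 lost regions, with 6.96% and 9.96% of them within 1 kb of a start site, 21.5% of shared regions wider, 2.54% narrower and 39.7% of genes with more gained regions. At equal depth and a recomputed −log10 p of at least 5, changed together, these were 12704 gained, 6.18% near start sites, 22.5% wider, 2.81% narrower and 37.7% of genes. Only the summit fragments were thinned there and peak edges stayed as deposited. That setting therefore cannot show how widths or start site coverage depend on depth. Lists cut to equal length gave 13106 gained and 8068 lost, 3.17% narrower and 35.0% of genes. That excess of gained regions equals the DMSO minus Corin peaks inside shared regions, so it depends on split or fused peaks. Merging peaks within 1 kb gave 9528 gained and 3421 lost, and a −log10 q of 5 on the side with the peak 7517 and 1574. Reciprocal overlap of 50% counted single peaks, and 35374 of Corin and 26549 of DMSO had no partner. Peaks pair singly under that rule, so this excess is the difference in list length. Within 2.5 kb of a start site lay 15.9% of gained and 15.7% of lost regions, so their order was not kept, and within 1 kb of canonical protein-coding starts 1.65% and 3.69%. A ratio of 2 gave 10.9% wider and 1.39% narrower, and spans in place of covered bases 21.3% wider. Gene windows of 10 and 100 kb gave 23.4% and 62.2% of genes, and 10 and 19 of the 20 monocyte markers. Start sites under a DMSO peak only numbered 2302 to 2318 and under a Corin peak only 445 to 453 in these alternatives; the cause of the moves was not tested. Gained and lost regions had medians of 21 and 19 fragments at the summit, so such calls often rested on few fragments.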
